A study of Mus musculus with 144 samples.

Results

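The 38 genes described here encode the chaperones, disulfide isomerases, protein-entry machinery, disposal machinery and stress regulators of the endoplasmic reticulum. They were chosen by symbol from the 55364 genes of the table, and all 38 were found there. The transcription factor gene Ddit3 has 2 rows, a 1713-base model that is used here and a 105-base model, so the 38 genes occupy 39 rows. By role they divide into 11 luminal chaperones and co-chaperones, 4 protein disulfide isomerases, 11 subunits of the translocon, the translocon-associated complex and signal peptidase, 6 genes of ER-associated degradation and 6 sensors and transcription factors of the unfolded protein response.

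Secreted and membrane proteins enter the endoplasmic reticulum through the Sec61 channel, lose their signal peptide to signal peptidase, and fold with the help of the Hsp70-family chaperone BiP (Hspa5), the Hsp90-family chaperone Grp94 (Hsp90b1), the lectin chaperones calreticulin and calnexin, and disulfide isomerases. Proteins that fail to fold are retro-translocated and degraded. When unfolded proteins accumulate, the sensors IRE1 (Ern1), ATF6 and PERK switch on the unfolded protein response, in which the factors XBP1, ATF6 and ATF4 raise transcription of the chaperone and degradation genes. Microglia, the resident macrophages of the retina, use this pathway to make cytokines, complement, lysosomal enzymes and surface receptors, and injury of the optic nerve activates them.

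The wells came from retinas of Iba1-EGFP reporter mice on the C57BL/6 background, 20 to 22 months old, in which EGFP under control of Iba1 (Aif1) marks microglia and other macrophages for sorting. Single cells were sorted from uncrushed eyes (no treatment, 54 wells), 2 days after optic nerve crush (36 wells) and 4 days after crush (54 wells), all groups sharing genotype, strain and age. The labels name no animals or pools, so each group counts as 1 sample, the wells within it are not replicates, and no test was made; SDs and ranges below are spreads between wells. The 144 wells fill 3 plates of 48, on which each group has its own rows, so group and plate row cannot be told apart. Of the 54 wells titled as day 4, 18 on plate 1 carry a treatment tag that names day 2; they are kept as day 4, and results without them are given where they matter.

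The depth recovered from the values separated the wells into 88 with 60079 to 8065065 reads, called deep here, and 56 with 643 to 14205 reads. The deep wells comprised 39 uncrushed, 25 day 2 and 24 day 4 wells. Of the 24, 12 carry the day 2 tag, and these are all the day 4 deep wells of plate 1. Only 2 of the day 4 deep wells were on plate 3, against 13 uncrushed deep wells there. 1 Hspa5 read was worth a median of 0.361 FPKM in a deep well and 114 FPKM in a shallow one, so levels are given for deep wells unless stated. At least 3 of 11 microglia markers reached 10 reads in 37 of 39 uncrushed, 21 of 25 day 2 and 22 of 24 day 4 deep wells.

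The promoters of several of these genes hold the binding motif through which ATF6 and XBP1 act, and these sites are shown as a sequence feature. The 38 were chosen as genes of the pathway that these factors control. The share with a site is therefore not independent of that choice and describes the genes only. The endoplasmic reticulum stress element (ERSE) is CCAAT and CCACG separated by 9 bases, and ERSE-II is ATTGG, 1 base, CCACG. Both were searched on both strands of the 250 bases before the RefSeq start (GRCm38.p6), which were in the table for 32 of the 38 genes. The ERSE occurred in 8 of the 32 (25%) and in 37 of 32851 promoters of all genes (0.113%), and ERSE-II occurred in Herpud1 alone of the 32 and in 10 of all promoters (0.0304%). Each site is printed 5′ to 3′ on the strand that holds the motif, with the fixed letters in capitals.
Calr ERSE (chr8:84847075-84847093, plus strand): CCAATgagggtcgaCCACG
Canx ERSE (chr11:50325800-50325818, minus strand): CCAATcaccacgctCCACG
Creld2 ERSE (chr15:88819520-88819538, minus strand): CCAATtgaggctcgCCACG
Dnajc3 ERSE (chr14:118937827-118937845, plus strand): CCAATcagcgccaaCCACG
Hsp90b1 ERSE (chr10:86705533-86705551, plus strand): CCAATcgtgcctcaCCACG
Hsp90b1 ERSE (chr10:86705638-86705656, minus strand): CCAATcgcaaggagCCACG
Hspa5 ERSE (chr2:34772025-34772043, plus strand): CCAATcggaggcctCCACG
Pdia6 ERSE (chr12:17266491-17266509, plus strand): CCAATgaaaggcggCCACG
Syvn1 ERSE (chr19:6046532-6046550, plus strand): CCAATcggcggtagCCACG
Herpud1 ERSE-II (chr8:94386377-94386387, plus strand): ATTGGgCCACG

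Whole promoters are shown for Hspa5, Hsp90b1 and Herpud1. Hspa5 was chosen for the largest day 4 difference over all plates. Hsp90b1 was the only gene of the 32 with a pair of ERSEs, and Herpud1 the only one with ERSE-II. The promoters read 5′ to 3′ on the strand of the gene and end at the base before the RefSeq start, with motif letters in capitals.
Hspa5 (chr2:34771840-34772089, plus strand): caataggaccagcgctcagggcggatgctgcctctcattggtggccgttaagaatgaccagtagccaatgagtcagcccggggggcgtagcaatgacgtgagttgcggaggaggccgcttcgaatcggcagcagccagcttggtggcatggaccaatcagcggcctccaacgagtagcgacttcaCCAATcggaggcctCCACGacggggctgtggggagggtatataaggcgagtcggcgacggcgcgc
Hsp90b1 (chr10:86705445-86705694, minus strand): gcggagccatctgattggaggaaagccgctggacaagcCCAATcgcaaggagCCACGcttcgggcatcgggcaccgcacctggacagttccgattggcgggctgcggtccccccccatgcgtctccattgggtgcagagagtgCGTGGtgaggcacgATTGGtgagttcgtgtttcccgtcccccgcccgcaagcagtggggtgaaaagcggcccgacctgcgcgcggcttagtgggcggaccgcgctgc
Herpud1 (chr8:94386179-94386428, plus strand): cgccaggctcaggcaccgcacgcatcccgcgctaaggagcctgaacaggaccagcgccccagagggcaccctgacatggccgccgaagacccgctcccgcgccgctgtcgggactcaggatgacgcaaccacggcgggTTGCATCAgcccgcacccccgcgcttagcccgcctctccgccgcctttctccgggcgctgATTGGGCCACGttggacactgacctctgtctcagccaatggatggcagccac
In Hspa5 the ERSE lay 65 to 47 bases before the start. In Hsp90b1 one site lay 212 to 194 bases before the start and the other 107 to 89 bases before it on the opposite strand, where it reads as CGTGG followed by ATTGG. Herpud1 held ERSE-II 52 to 42 bases before the start and, on the opposite strand, the ATF4 and CHOP element (TGATG, any base, AA), which 3.45% of all promoters hold. The XBP1 core element, TGACG followed directly by TGG, was in no promoter of the 32 and in 0.563% of all promoters. A match describes the letters of this window only.

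At 4 days after crush, most of these genes were higher than in uncrushed wells, led by Hspa5, the co-chaperone Sdf2l1, the secreted ER-resident factor Manf and Hsp90b1. Differences are between group means of log2(FPKM + 1) over deep wells, a difference of 1 or more counts as higher, and the filter asks for FPKM of 1 or more in at least 5% of the deep wells of the pair of groups. At day 4, 30 of the 38 genes were higher and 0 were lower, where 26.5% of the 11089 genes passing the filter were higher and 0.712% were lower. Of the 38, 36 passed the filter and Hyou1 and Trib3 did not. The median difference over the 38 was 1.85, against 0.50 over all genes that passed. These differences join the share of wells with a gene and its level in those wells. In wells at 10 reads, the day 4 median was above the uncrushed one for some genes, such as Hspa5 (1114 and 299 FPKM). It was below for others, such as Pdia4 (187 and 653 FPKM, 11 and 3 wells) and Derl1 (85.0 and 332 FPKM, 11 and 5 wells).

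At 2 days after crush the same direction was seen in fewer genes and at smaller size. At day 2, 13 of the 38 genes were higher than in uncrushed wells and 0 were lower, where 13.8% of 9716 genes were higher and 1.06% lower, with 35 of the 38 passing the filter. The median difference over the 38 was 0.66, against 0.26 over all genes that passed. Both crush groups were set against the same uncrushed wells. Set directly against day 2, day 4 had 21 of the 38 genes higher and 0 lower, where 12% of 12615 genes were higher and 1.23% lower, with medians of 1.15 over the 38 and 0.22 over all genes that passed.

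Among the 11 chaperones, 10 were higher at day 4, with a median difference of 2.49 over the 11, and 3 were higher at day 2, with a median of 0.66. Hspa5, the gene of the main lumenal chaperone, which holds the stress sensors inactive at rest (ENSMUSG00000026864, chr2:34771970-34777547), had the largest day 4 difference over all plates. It was 3.70, against 3.69 for Sdf2l1. On plate 1 Hspa5 differed by 2.15, below Ssr2 (4.87) and Sdf2l1 (4.62), among others. The lowest, median and highest Hspa5 FPKM were 0, 2.29 and 2432 in uncrushed wells, 0, 3.24 and 1394 in day 2 wells, and 0.502, 851 and 2878 in day 4 wells. The middle well at day 4 was thus in the upper part of the uncrushed range, while the ranges overlapped over nearly their whole width. Mean log2(FPKM + 1) was 7.41 ± 4.00 in 24 day 4 wells and 3.72 ± 3.67 in 39 uncrushed wells (SD between wells), a difference of 3.70. At day 2 the mean was 4.38 ± 3.99 in 25 wells, 0.66 above uncrushed.

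The wells split into those with almost no Hspa5 and those with high levels, so the share of wells with 10 or more Hspa5 reads describes the groups as well as the mean does. That share was 41.03% of uncrushed wells (16 of 39, exact 95% interval 25.6 to 57.9%), 48% of day 2 wells (12 of 25, 27.8 to 68.7%) and 75% of day 4 wells (18 of 24, 53.3 to 90.2%). These intervals cover counting error only, and the day 4 and uncrushed intervals overlapped. Within the wells that reached 10 reads the median was also higher, at 299 FPKM in uncrushed, 427 FPKM in day 2 and 1114 FPKM in day 4 wells. With every well thinned to 50000 reads, Hspa5 had any read in 19 of 39 uncrushed, 14 of 25 day 2 and 19 of 24 day 4 wells, where unthinned it had one in 34, 24 and 24.

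Sdf2l1, a small stromal cell derived factor 2-like protein that keeps BiP clients from aggregating (chr16:17130138-17132383), had lowest, median and highest values of 0, 0 and 1033 FPKM in uncrushed wells, 0, 2.75 and 906 FPKM in day 2 wells and 0, 317 and 1404 FPKM in day 4 wells. It differed by 3.69 at day 4 and by 2.01 at day 2, the largest day 2 difference among the chaperones. Manf (chr9:106838312-106891979), a secreted ER protein with neuroprotective activity, had a median of 0 FPKM in uncrushed and day 2 wells and 81.8 FPKM at day 4, with highest wells of 158.5, 273 and 504 FPKM. It was at 10 reads in 6 of 39 uncrushed (15.4%, 5.86 to 30.5%), 8 of 25 day 2 (32%) and 15 of 24 day 4 wells (62.5%, 40.6 to 81.2%). These intervals cover counting error over wells only and are no test between groups. Manf differed by 3.47 at day 4 and 0.78 at day 2. By plate its day 4 difference was 2.66 on plate 1, 5.50 on plate 2 and -1.14 on plate 3.

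Hsp90b1, which folds Toll-like receptors and integrins (chr10:86690209-86705509), ran over 0, 0.543 and 3101 FPKM in uncrushed, 0, 56.9 and 570 FPKM in day 2 and 0.109, 218 and 543 FPKM in day 4 wells, given as lowest, median and highest. The highest well of all was an uncrushed one, although the uncrushed median was the lowest of the groups. Hsp90b1 differed by 3.37 at day 4 and by 1.80 at day 2. Calr, calreticulin, differed by 3.22 at day 4 and 1.54 at day 2, and Canx, calnexin, by 1.33 and 0.72. Canx was at 10 reads in 70.8% of day 4 and 38.5% of uncrushed wells. In the wells that reached 10 reads its median was 112 FPKM at day 4 and 115 FPKM in uncrushed wells, so its groups differed in detection more than in level where detected.

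The J-domain co-chaperones, which stimulate the BiP ATPase, were lower in FPKM than BiP itself and differed less between groups. Dnajb11 differed by 1.53 at day 4, Dnajb9 by 1.15 and Dnajc3 by 1.09, and Creld2, an ER stress-inducible secreted factor, by 2.49. At day 2 none of these 4 reached 1, with Dnajc3 at -0.35. Hyou1, the large Hsp70-family nucleotide exchange factor of BiP, was at 10 reads in 1 of 39 uncrushed, 2 of 25 day 2 and 2 of 24 day 4 wells. It was the 1 gene of the 38 with a difference below 0 at day 4 (-0.04), and at these counts no change in either direction could be seen.

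All 4 disulfide isomerases were higher at day 4, with a median difference of 2.82, and 3 of the 4 were higher at day 2, with a median of 1.51. Pdia3, which pairs with calreticulin and calnexin and helps load MHC class I, was the most widely detected. Its lowest, median and highest values were 0, 2.36 and 1930 FPKM in uncrushed, 0, 234 and 1498 FPKM in day 2 and 0, 479 and 1223 FPKM in day 4 wells. It reached 10 reads in 15 of 39 uncrushed, 17 of 25 day 2 and 16 of 24 day 4 wells, which puts day 2 (68%) already at the share of day 4 (66.7%). It differed by 2.92 at day 4 and 2.12 at day 2.

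Pdia6 differed by 2.82 at day 4 and by 0.56 at day 2, and Pdia4 by 2.82 and 1.32. Both are found in a complex with BiP. Pdia4 was at 10 reads in 3 of 39 uncrushed, 5 of 25 day 2 and 11 of 24 day 4 wells. P4hb, the archetypal disulfide isomerase, differed by 2.48 at day 4 and 1.70 at day 2, with medians of 0.688 FPKM in uncrushed, 2.06 FPKM in day 2 and 86.0 FPKM in day 4 wells.

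**Figure D1:**
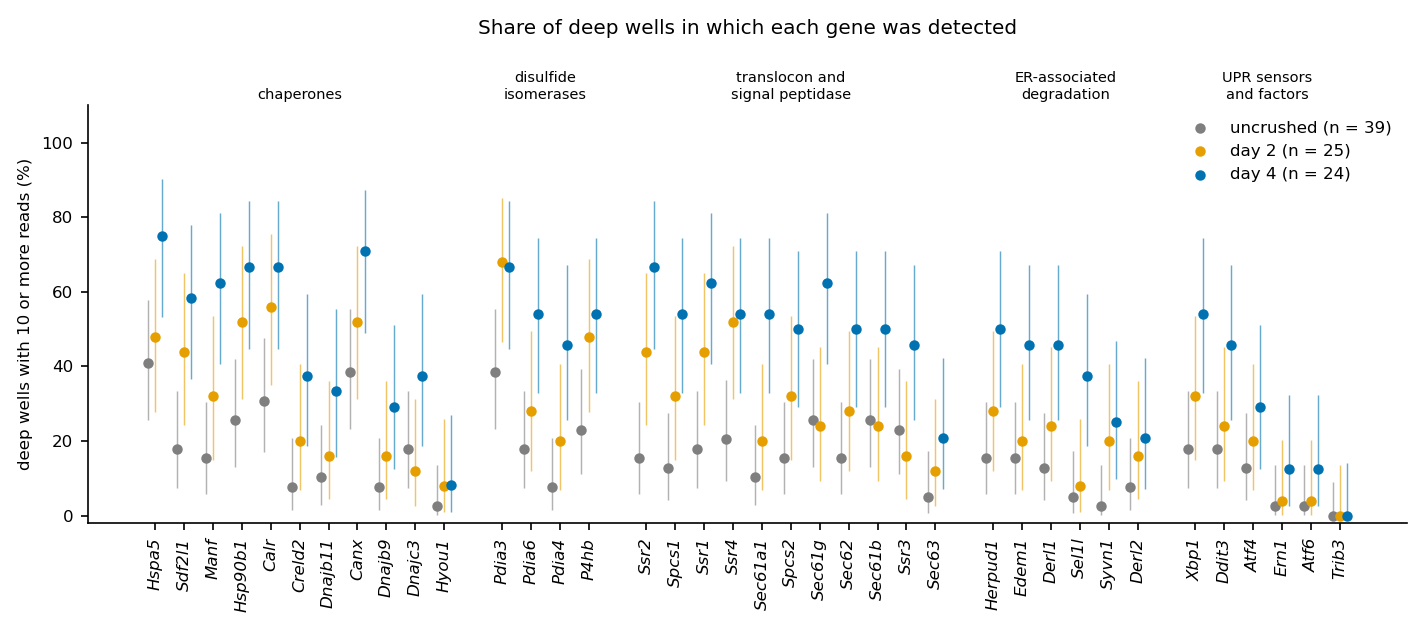
Share of deep wells with 10 or more reads (vertical axis, %) for each of the 38 genes, grouped by role, with exact 95% intervals that cover counting error only. Hspa5 has the highest day 4 share at 75%, and Trib3 is at 0% in all groups.

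Of the 11 entry genes, 9 were higher at day 4 with a median difference of 1.99, and 5 were higher at day 2 with a median of 0.90. The subunits of the translocon-associated (TRAP) complex, which assists insertion of some signal sequences, ranged from the largest day 4 difference of the 11, Ssr2, to the second smallest, Ssr3. Ssr2 (chr3:88575876-88588419) had lowest, median and highest values of 0, 0 and 407 FPKM in uncrushed, 0, 1.42 and 897.5 FPKM in day 2 and 0, 70.8 and 495 FPKM in day 4 wells. It reached 10 reads in 15.4% of uncrushed, 44% of day 2 and 66.7% of day 4 wells, and differed by 3.31 at day 4 and 1.76 at day 2. Ssr1 differed by 2.65 at day 4 and 1.24 at day 2.

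Ssr4, the X-linked TRAP subunit, had the largest difference of all 38 genes at day 2, 2.37, and was little further up at day 4, 2.45. Its medians were 0.165 FPKM in uncrushed, 32.1 FPKM in day 2 and 52.8 FPKM in day 4 wells. Ssr3, also of the TRAP complex, stood at -0.71 at day 2 and 0.77 at day 4. The signal peptidase subunit Spcs1 differed by 3.00 at day 4 and 1.31 at day 2, and its partner Spcs2 by 1.99 and 0.90.

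The channel itself was less uniform. Sec61a1, which forms the pore, differed by 2.24 at day 4 and 1.03 at day 2, and was at 10 reads in 4 of 39 uncrushed, 5 of 25 day 2 and 13 of 24 day 4 wells. The small subunits Sec61b and Sec61g were below uncrushed at day 2 (-0.44 and -0.29) and above it at day 4 (1.26 and 1.92). Sec62 and Sec63, which serve post-translational entry, differed by 1.40 and 0.58 at day 4. Counts of some of these genes are less certain than others: of values under 100 reads, the share that came out as whole reads within 0.02 was 13.6% for Sec61g, 48.6% for Sec61b, 54.1% for Ssr2 and 48.5% for Hsp90b1, but 100% for Hspa5, Sdf2l1 and Ssr1.

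Among the degradation genes 4 of 6 were higher at day 4, with a median difference of 1.40, and 1 of 6 at day 2. Herpud1, the ERSE-II gene whose product organises the ubiquitin ligase complex, differed by 2.81 at day 4 and 1.02 at day 2. Its lowest, median and highest levels were 0, 0 and 253 FPKM in uncrushed, 0, 0.652 and 1469 FPKM in day 2 and 0, 52.5 and 712 FPKM in day 4 wells. Day 4 wells divided evenly, with 12 of 24 at 10 reads, against 6 of 39 uncrushed wells.

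Edem1, a mannosidase-like protein that marks glycoproteins for disposal, differed by 1.78 at day 4, Derl1, a retro-translocation channel component, by 1.62, and the ligase adaptor Sel1l by 1.17. Sel1l was at 10 reads in 2 of 39 uncrushed, 2 of 25 day 2 and 9 of 24 day 4 wells. The ligase Syvn1 (Hrd1) and Derl2 fell short of 1 at day 4, at 0.86 and 0.05. Syvn1 holds an ERSE, and it had the smallest day 4 difference of the 8 genes that do.

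The stress sensors were barely detected, while Xbp1 was as high as many chaperones. Xbp1 (chr11:5520659-5525893) ran over 0, 0 and 374 FPKM in uncrushed, 0, 0.383 and 3389 FPKM in day 2 and 0, 60.2 and 371 FPKM in day 4 wells, as lowest, median and highest. It differed by 2.69 at day 4 and 1.17 at day 2. In wells at 10 reads the median was 167 FPKM in uncrushed, 86.3 FPKM in day 2 and 153 FPKM in day 4 wells, so the day 4 wells differed in how many reached 10 reads (13 of 24, against 7 of 39 uncrushed). These are gene totals, which do not separate spliced from unspliced Xbp1.

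Of the PERK branch, 2 of the 3 genes here reached 1 at day 4. Ddit3, which encodes the pro-apoptotic factor CHOP, differed by 1.38 at day 4 and 0.41 at day 2, with a median of 0 FPKM in uncrushed and day 2 wells and 2.66 FPKM at day 4. Atf4, which is controlled mainly at translation, differed by 1.0 at day 4 and 0.61 at day 2, and was at 10 reads in 7 of 24 day 4 and 5 of 39 uncrushed wells. Trib3, a pseudokinase gene induced by ATF4 and CHOP, was at 10 reads in 0 wells of any group, which allows a share of up to 7.69% of uncrushed, 12% of day 2 and 12.5% of day 4 wells.

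Ern1 and Atf6 were each at 10 reads in 1 of 39 uncrushed, 1 of 25 day 2 and 3 of 24 day 4 wells. Their day 4 differences were 0.42 and 0.30. Over the 6 regulators 3 were higher at day 4, with a median difference of 0.71, and 1 at day 2.

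The 8 genes with an ERSE had a median day 4 difference of 2.66, with a range of 0.86 to 3.70, and 7 of the 8 were at 1 or more. The 24 genes with a promoter and no ERSE had a median of 1.65 and a range of 0.03 to 3.69, with 19 of the 24 at 1 or more, where 26.5% of all genes were. The ranges overlapped almost completely, and Sdf2l1 was among the genes without an ERSE in this window. Herpud1 (2.81), which holds ERSE-II, was also counted among these 24.

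The day 4 result differed by plate, and every day 4 deep well of plate 1 carries the day 2 tag. On plate 1, 26 of the 38 genes were higher at day 4, where 29.1% of all genes passing the filter were, and on plate 2, 31 of the 38 were, where 40.2% were. On plate 3, with 2 day 4 wells, 1 was higher and 21 were lower, where 4.38% of genes were higher and 25.3% lower. Hspa5 differed by 2.15 on plate 1, 6.76 on plate 2 and -2.36 on plate 3. The 2 day 4 wells of plate 3 held 108 and 390 genes at 10 reads, against a median of 1519 in the 13 uncrushed wells of that plate, and 0 and 1 of the 38 genes at 10 reads.

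Without plate 2, the count at day 4 was 19 (17.9% of all genes), and Hspa5 differed by 1.61. Without the 18 wells tagged day 2 it was 31 (29.2% of all genes) and Hspa5 differed by 4.396. Day 4 then rests on 10 deep wells of plate 2 and 2 of plate 3. Set against day 2 without those tagged wells, day 4 had 22 of the 38 genes higher (15.1% of all genes). At day 2, the counts were 17 of 38 on plate 1, 9 on plate 2 and 12 on plate 3, where 25.1%, 15.6% and 18.6% of all genes were higher. On the same plates 1, 4 and 1 of the 38 were lower, where 3.74%, 9.47% and 6.13% of all genes were. Hspa5 differed by -0.30, 1.14 and 0.73 at day 2. Without plate 2 the day 2 difference of Hspa5 was 0.16, and without the wells holding neutrophil or rod markers described below it was 1.24. The day 2 differences of Ssr2 were 4.38, -1.28 and 0.89 on plates 1, 2 and 3, and those of Pdia3 were 1.55, -0.27 and 3.36. For single genes the day 2 direction thus depended on the plate.

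**Figure D2:**
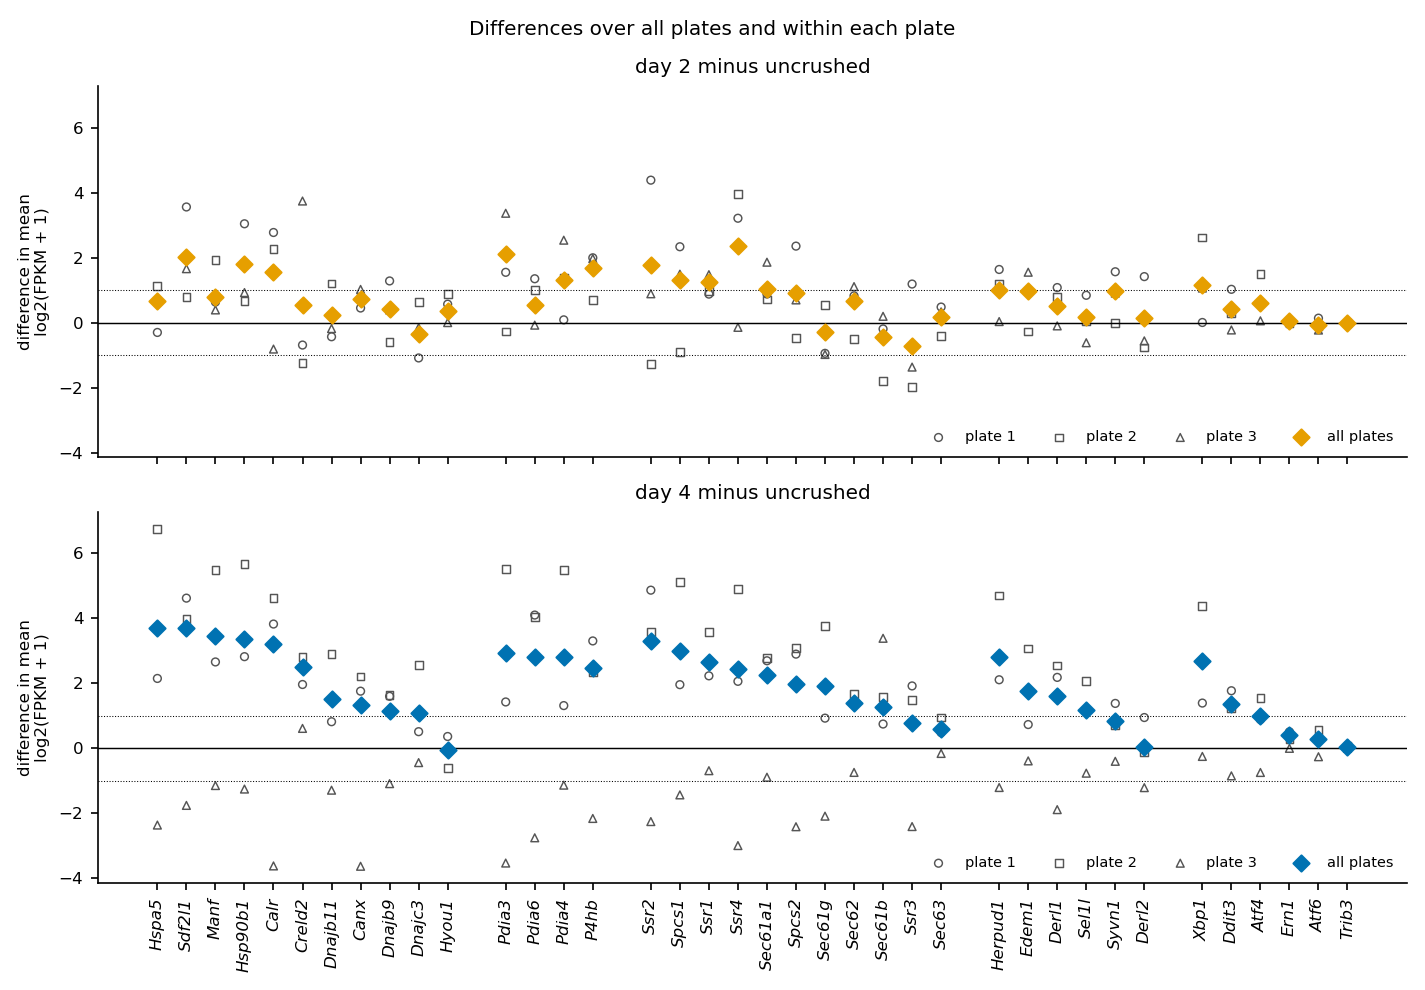
Difference in mean log2(FPKM + 1) from uncrushed deep wells at day 2 (top) and day 4 (bottom) for the 38 genes; diamonds are all plates together, open symbols single plates, dotted lines 1 and -1. At day 4, plates 1 and 2 lie above 0 for nearly all genes and plate 3, with 2 day 4 wells, below it for most (Hspa5 2.15, 6.76 and -2.36).

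Summed over the 38 genes, RPM (reads out of each 1000000 of the well) had a lowest, median and highest well of 13.6, 5585 and 18260 in uncrushed, 9.59, 8455 and 56360 in day 2 and 97.5, 13730 and 31650 in day 4 wells. The middle well at day 4 thus gave more of their reads to these genes, and the lowest wells of all groups gave almost none. Without Hspa5 the medians were 4256, 6273 and 10340 RPM, in the same order. The highest well, on plate 2 at day 2, reached its sum with 5 of the 38 genes at 10 reads and 412 genes in all, with Canx at 4168 FPKM, Xbp1 at 3389 FPKM, Calr at 3051 FPKM and Pdia6 at 2900 FPKM.

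By role, chaperones took 44.6% of the pooled RPM of these genes in uncrushed, 40.7% in day 2 and 50.9% in day 4 wells. Disulfide isomerases took 23.4, 24.6 and 22.9%, and entry genes 21.9, 18.5 and 17.1%. Degradation genes took 7.31, 9.07 and 5.65%, and regulators 2.83, 7.19 and 3.49%. The day 2 shares include the well at 56360 RPM, of which 11010 RPM were of regulators. Hspa5 alone took 14.03% of the pooled RPM in uncrushed, 10.1% in day 2 and 25.04% in day 4 wells. Its median share per well was 1.68% in uncrushed, 5.74% in day 2 and 23.1% in day 4 wells, so the make-up of the day 4 wells was weighted towards BiP.

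**Figure D3:**
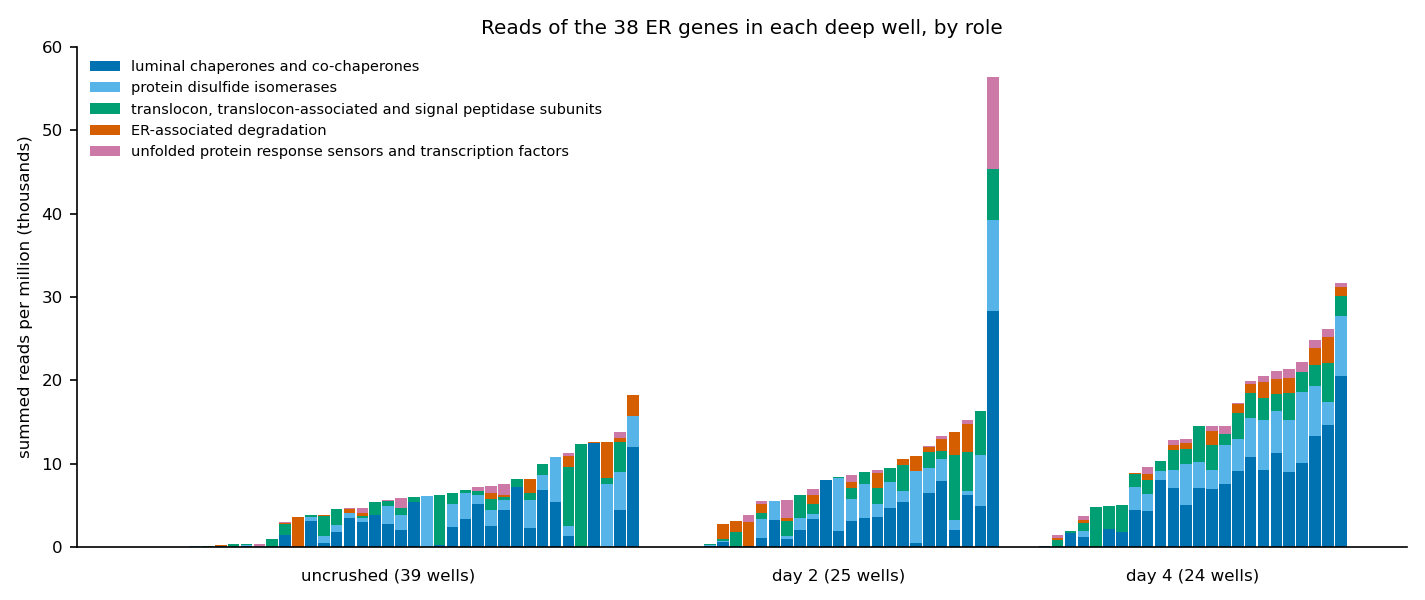
Summed RPM (vertical axis, in units of 1000) of the 38 genes in each deep well, stacked by role and sorted within group. The day 4 median is 13730, against 5585 in uncrushed wells, and 1 day 2 well stands apart at 56360.

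The genes were also detected together. The number of the 38 at 10 reads per well had a median of 4 in uncrushed, 8 in day 2 and 14 in day 4 wells, with highest wells of 25, 24 and 36. Wells with 20 or more of them numbered 2 of 39 uncrushed (5.13%), 5 of 25 day 2 (20%) and 10 of 24 day 4 (41.7%), while 9 day 4 wells had 1 to 9 and 1 had none. The day 4 wells therefore spread from nearly none to nearly all of the genes.

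The number of all genes at 10 reads moved the same way. Its median was 1044 in uncrushed, 1507 in day 2 and 2174 in day 4 wells. Members of the 38 per 1000 genes detected had medians of 3.83, 5.31 and 5.77, a smaller step than the counts themselves. With every well thinned to 50000 reads, the medians were 6, 8 and 14.5 of the 38 genes with any read, and 1257, 1535 and 2238.5 of all genes. The part of this wider detection in the differences of single genes was not tested.

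**Figure D4:**
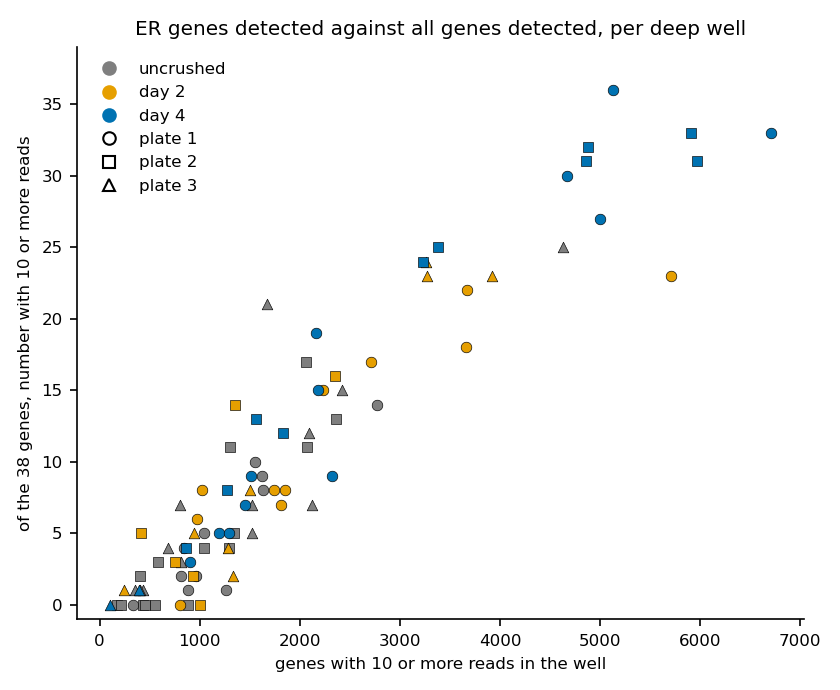
Number of the 38 genes with 10 or more reads (vertical axis) against all genes with 10 or more reads (horizontal axis) in each deep well, coloured by group, with symbols for plates. The groups lie along 1 band, and the wells with 27 to 36 of the 38 genes are all day 4 wells, with 4675 to 6707 genes.

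Across wells of a group, Hspa5 went with the other genes most closely at day 4. Its Spearman correlation with each of 32 others over the 39 uncrushed wells had a median of 0.18, highest for Calr at 0.52, and over the 25 day 2 wells the median was 0.18 with 33 genes. Over the 24 day 4 wells the median was 0.52 with 34 genes, from 0.08 to 0.75, positive for all 34 and highest for Hsp90b1. The wells share the number of genes detected: Hspa5 itself correlated with genes at 10 reads at 0.37 in uncrushed, 0.41 in day 2 and 0.68 in day 4 wells, and with recovered reads at 0.04, -0.15 and 0.19. These values describe the wells and carry no test.

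Known targets of XBP1 or ATF6 were detected in a larger share of the wells with Xbp1 in every group. Of 13 day 4 wells with Xbp1 at 10 reads and 11 without, Herpud1 was at 10 reads in 11 and 1, Edem1 in 11 and 0, Sdf2l1 in 11 and 3, Dnajb9 in 6 and 1, and Hspa5 in 12 and 6. In uncrushed wells, with 7 and 32, the same counts were 4 and 2 for Herpud1, 2 and 4 for Edem1, 4 and 3 for Sdf2l1, 2 and 1 for Dnajb9, and 6 and 10 for Hspa5. In day 2 wells, with 8 and 17, they were 4 and 3 for Herpud1, 3 and 2 for Edem1, 5 and 6 for Sdf2l1, 2 and 2 for Dnajb9, and 5 and 7 for Hspa5. Ddit3 was at 10 reads in 4 of 7 day 4 wells with Atf4 and in 7 of 17 without. Wells with more genes detected hold more of any pair, and that part was not tested.

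Gpr84, an inducible receptor of activated microglia, was at 10 reads in 12 of 24 day 4 wells. Those 12 wells had a median of 30.5 of the 38 genes at 10 reads and 4767 genes in all, against 7 and 1402.5 in the 12 without it, or 6.40 and 4.41 of the 38 per 1000 genes. The other groups were split in the same direction. In uncrushed wells the median was 13 of the 38 in 5 wells with Gpr84 and 3.5 in 34 without. Per 1000 genes the uncrushed medians were 5.397 and 3.498. In day 2 wells the median was 23 in 6 wells with Gpr84 and 6 in 19 without. Per 1000 genes the day 2 medians were 5.928 and 4.914.

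Other genes of the pathway, 75 in 5 lists, were higher more often than the background at both days. At day 2 they were also lower more often. Of the 75, 63 passed the filter at day 4 and 52 at day 2, and only these were counted. At day 4, 35 were higher and 0 lower (26.5% and 0.712% of all genes that passed). The day 4 median was 0.95 over the 75, against 0.50 over all genes that passed. At day 2, 14 were higher and 3 lower (13.8% and 1.06% of all genes that passed). The day 2 median was 0.22 over the 75, against 0.26 over all genes that passed. By list at day 4, 8 of 11 oligosaccharyl transferase and glycoprotein folding genes were higher, 11 of 19 other folding enzymes, 6 of 13 genes of the signal recognition particle and entry, 6 of 16 genes of the PERK and ATF4 branch and 4 of 16 genes of ATF6 and XBP1 processing. The last list had a median of 0.34 over all 16 genes, of which 11 passed the filter. Like the medians over the 75, it includes genes that did not pass. It cannot be set directly against the 0.50, which is over passing genes only. The largest in each were Rpn1 (2.52), a subunit that adds sugar chains to entering proteins, Selenof (3.12), a selenoprotein of the folding machinery, Srp19 (2.40), a protein of the signal recognition particle, Eif2s1 (2.81), the initiation factor subunit that PERK phosphorylates, and Rtcb (2.39), the ligase that joins spliced Xbp1.

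Markers of other cells moved with the groups. At least 3 of 11 neutrophil markers reached 10 reads in 3 of 39 uncrushed, 9 of 25 day 2 and 6 of 24 day 4 wells, and their summed RPM had medians of 10.98, 49.9 and 166.6, with highest wells of 105400, 95920 and 72010; Ngp, Camp and Ltf had no read in any group. Rod markers did so in 4, 1 and 1 wells, with medians of 6.46, 0.894 and 1.98. The 6 day 4 wells with neutrophil or rod markers had a median of 28 of the 38 genes at 10 reads, against 12.5 in the 18 day 4 wells without. The same 6 wells had a median of 10.5 of the 11 microglia markers, against 9 in the 18 without. At day 2 those medians were 6 in wells with neutrophil or rod markers and 9 in wells without. With all wells holding neutrophil or rod markers left out, 24 of the 38 genes were higher at day 4 (23.7% of all genes), and Hspa5 differed by 3.42.

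Plasma cells, which are rich in this machinery, were looked for by 8 markers of plasma and B cells. No well of any group reached 3 of them. Their summed medians were 9.34 RPM in uncrushed, 2.02 in day 2 and 360 in day 4 wells, with lowest wells of 0 and highest wells of 12550, 3527 and 12300, and Jchain, Mzb1, Cd79a and Ms4a1 had no read in any group. No well held 3 markers of monocytes, T and NK cells or endothelium, although summed monocyte markers reached 42680 RPM in 1 day 4 well, against highest wells of 109.9 RPM at day 2 and 2097 RPM in uncrushed wells. At least 3 of 6 markers of Muller glia and astrocytes were at 10 reads in 1 of 25 day 2 wells and in no day 4 or uncrushed well. The part of these markers in the differences was not tested.

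Over all 144 wells, Hspa5 was at 1 FPKM or more in 39 of 54 uncrushed (72.2%), 24 of 36 day 2 (66.7%) and 47 of 54 day 4 wells (87.0%), with medians of 5.92, 122 and 394 FPKM. These medians mix deep and shallow wells, in which 1 read is worth different amounts, and were higher than those of the deep wells in the uncrushed and day 2 groups and lower in the day 4 group. Xbp1 was at 1 FPKM or more in 11 of 54 uncrushed (20.4%), 10 of 36 day 2 (27.8%) and 22 of 54 day 4 wells (40.7%). Over all wells, 22 of the 38 genes were higher at day 4 than in uncrushed wells (9.4% of all genes) and 9 at day 2 (7.99%). The day 4 and day 2 wells differed less in this set, with 8 of the 38 higher at day 4 (3.63% of all genes).

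Between day 4 and day 2, the deep wells differed most in Hspa5 (3.04), Manf (2.68), Pdia6 (2.27), Sec61g (2.21) and Creld2 (1.96). These are genes with small or negative differences at day 2. Ssr4 (0.08), P4hb (0.78) and Pdia3 (0.80) differed less over all plates, and were 1 or more higher at day 2 than in uncrushed wells. Sdf2l1 and Hsp90b1 were too, yet differed by 1.68 and 1.57. Canx, below 1 at day 2, differed by 0.60. Both sets of differences use the same day 2 means. On plates 1, 2 and 3 Pdia3 differed by -0.12, 5.78 and -6.89 and P4hb by 1.31, 1.64 and -4.13, so their small values joined opposite signs. By plate the Hspa5 difference between day 4 and day 2 was 2.45 on plate 1, 5.62 on plate 2 and -3.09 on plate 3, and without plate 2 only 6 of the 38 genes were higher at day 4 (7.2% of all genes).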

How the data were processed

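Single cells were sorted from retina into plates, and per the labels' protocols cDNA was made and amplified in each tube, tagmented and built into libraries with the Nextera XT kit. The authors deposited FPKM for 55364 genes in 144 wells. Trim Galore 0.4.4, Trimmomatic 0.36, cutadapt 1.16, STAR 2.7.2b and featureCounts 1.6.1 and the build GRCm38.p6 (mm10) are named in the submitters' processing notes. No molecular identifiers are named, so reads are not independent molecules, and intervals and limits cover counting error only.

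Reads were recovered per well from the deposited FPKM, as 1 read equals the most frequent value above 0 of FPKM × length; 40.9% of values under 100 reads were then whole within 0.01, so some genes hold fractional reads. Wells with 50000 or more reads are deep. Levels are log2(FPKM + 1), which understates the difference of low genes; a gene is detected at 10 reads, or at FPKM 1 over all wells. Groups came from the titles. Exact 95% intervals are Clopper-Pearson, and a zero allows 3 counts. The labels name no animal, so no test was made.

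The 38 genes, the role, pathway and marker lists and the rules were chosen with earlier results of these data known. Values in every group are given for up to 4 genes per role that differ by 1 or more with the same sign on plates 1 and 2, and for the regulators whatever their values; Calr, Canx, Hyou1, the co-chaperones, Sec61 subunits and others outside this rule were named after their values were seen. Promoter sequences are RefSeq's (GRCm38.p6) and gene coordinates GENCODE's (GRCm38). Of 33 RefSeq promoters of the genes, 31 precede bases found in a GENCODE transcript. The RefSeq starts of Hspa5 and Hsp90b1, among others, lie inside the GENCODE gene, as does the ERSE of Hspa5. Alternatives were other wells, plates, pseudocounts, scales, depth, filters and labels. Calculations, tested on simulated data, used scipy 1.17.1, pandas 2.3.3 and numpy 2.4.6 under Python 3.11.15, with matplotlib 3.10.9 for plots.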

Additional observations from a re-analysis of the deposited data

Results flagged for a closer look

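Signal was present in 2 sets of values outside the comparisons of deep wells. The 105-base model of Ddit3, which lies inside the longer one, had any read in 4 of 39 uncrushed (10.3%, exact 95% interval 2.87 to 24.2%), 6 of 25 day 2 (24%) and 10 of 24 day 4 deep wells (41.7%, 22.1 to 63.4%). Every one of these wells also had reads on the longer model, and it was looked at because the day 4 share was above that of the uncrushed wells. In the shallow wells, Hspa5 had any read in 11 of 15 uncrushed (73.3%, 44.9 to 92.2%), 8 of 11 day 2 (72.7%) and 26 of 30 day 4 wells (86.7%, 69.3 to 96.2%). It was looked at because these wells enter only the values over all 144 wells and the day 4 share was above the uncrushed one. The intervals overlapped, and these wells hold at most 14205 reads each.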

How the results depend on the processing

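Of 102 values of counts and Hspa5 shares under other settings, 86 kept their size and 16 moved. Counts and shares cannot fall below 0, so they have no direction to turn. The count of genes higher at day 4 than in uncrushed wells, 30, was 19 without plate 2 (17.9% of all genes). It was 18 with a pseudocount of 10 (7.28% of all genes), and lay between 22 and 32 otherwise (5.31 to 50.4% of all genes). With the filter at 25 percent of wells, 25 of the 26 genes that passed were higher, where 45.7% of all genes were. The day 2 count of 13 was 7 with a pseudocount of 10 (3.25% of all genes). 1 gene became lower at day 2 without plate 1 (3.11% of all genes) and without plate 3 (2.27%). The same count was seen with a pseudocount of 0.1 (2.71%) and in RPM (1.28%). The count of 21 higher at day 4 than at day 2 was 8 over all wells (3.63% of all genes) and 6 without plate 2 (7.2%). Without wells holding neutrophil or rod markers it was 13 (8.11%), and with a pseudocount of 10 it was 10 (2.44%). 1 gene became lower without plate 2 (4.84%) and 1 without wells holding those markers (4.62%). The cause was not tested. Upper-quartile scaling moved the median of all genes at day 4 from 0.50 to 0.63 above uncrushed, with 32 of the 38 genes higher (32.3% of all genes). With 1 read counted as detection, the share of wells with Hspa5 was 87.2% in uncrushed, 96% in day 2 and 100% in day 4 wells, so that share depends on the count asked for. Of 484 single-gene differences under other settings, 483 stayed within 1 SD between wells. That SD was wide (4.00 for Hspa5 at day 4), so this is a loose measure. The Ssr2 difference at day 2 fell from 1.76 to as little as 0.06, and that of Pdia4 at day 4 from 2.82 to 0.98. Small day 2 differences changed sign under some settings, with lowest values of -0.05 for Ddit3, -0.16 for Atf4, -0.25 for Sel1l and -0.07 for Ern1. Atf6, at -0.06, reached 0.02. No paired analysis was possible because well and plate numbers name no animal and no test was made. Depth limits the genes seen at 10 reads in few or no wells, such as Trib3, Hyou1, Ern1 and Atf6, and 2 day 4 deep wells on plate 3 cannot describe that plate.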
